A study of Homo sapiens with 19 samples.

Results

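The 10 genes described here encode subunits of the mammalian SWI/SNF chromatin remodelling complexes, and their mRNAs were followed in the liver cancer line HepG2, of human origin, after knockdown of INO80 or MCRS1 and after treatment with EPZ-6438. They were chosen by symbol (ARID1A, ARID1B, ARID2, SMARCA4, SMARCA2, SMARCB1, SMARCC1, SMARCC2, PBRM1 and SMARCE1), and all 10 were found among the 34825 gene symbols in both tables of the series. The rule itself uses no measured value.

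SWI/SNF complexes use an ATPase, SMARCA4 (BRG1) or SMARCA2 (BRM), to slide or evict nucleosomes. The ATPase sits on a core that contains SMARCC1, SMARCC2 or both, together with SMARCB1 and SMARCE1. The BAF form carries ARID1A or ARID1B, and the PBAF form carries ARID2 and PBRM1. SMARCA4 and SMARCA2 largely take the same place in the complex in turn, as do ARID1A and ARID1B. Genes of several of these subunits are recurrently mutated in liver cancer. INO80 is the ATPase of a separate remodelling complex, INO80-C, of which MCRS1 is an accessory subunit, and EPZ-6438 inhibits EZH2, the methyltransferase of Polycomb repressive complex 2, which SWI/SNF opposes.

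Cells received 50 nM of siRNA and were harvested 72 h later. In the INO80 experiment the groups were a non-targeting control siRNA (NTG) and a pair of siRNAs against INO80, siINO80#1 and siINO80#2, with replicates A, B and C in each. In the drug experiment cells were given 1 uM EPZ-6438 or DMSO from 3 days before transfection with NTG or with 1 siRNA against MCRS1 (siMCRS1), and the groups were DMSO NTG (2 libraries, numbered 1 and 3), DMSO siMCRS1 (3), EPZ-6438 NTG (3, numbered as in the table) and EPZ-6438 siMCRS1 (2, A and B). MCRS1 was targeted by a single siRNA, knockdown was transient, and the drug groups differ in size. Whether replicates were separate cultures is not stated, so the p-values measure the spread between these libraries, which may be technical.

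As recovered from the deposited normalized counts, library depth was 17093574 to 25369547 reads for the INO80 siRNAs and their control, and 26038505 to 47397233 for the drug experiment. INO80 was at 1278, 1338 and 1175 normalized counts in NTG, at 576, 639 and 609 with siINO80#1 and at 440, 456 and 483 with siINO80#2. MCRS1 was at 1577 and 1283 in DMSO NTG and at 140, 83.7 and 119 in DMSO siMCRS1, and at 1533, 1355 and 1201 in EPZ-6438 NTG and 126 and 90.5 in EPZ-6438 siMCRS1. Every targeted library was below every control library. INO80 was also lower with siMCRS1, by 0.27 on the log2 scale in DMSO (limma, adjusted p = 0.039) and by 0.35 in EPZ-6438 (adjusted p = 0.0097). All 10 hepatocyte and HepG2 markers were expressed in both experiments (summed level at least 624594 normalized counts in every library). Of these, 1, 5, 1 and 3 were lower in every library than in the control with siINO80#1, with siINO80#2, in DMSO siMCRS1 and in EPZ-6438 siMCRS1, and 2, 1, 0 and 2 were higher. HNF4A, a hepatocyte transcription factor, went from a mean of 5619 in NTG to 4133 and 2759 with the INO80 siRNAs, and from 8017 to 5474 in DMSO and 8487 to 5800 in EPZ-6438 with siMCRS1. The summed level of 8 markers of other cell types was 361 to 492 in the INO80 experiment, where the T cell gene CD3E was at 0, and 240 to 973 in the drug experiment. With siMCRS1 that sum was higher than with NTG in each treatment (602 to 973 beside 432 to 509 in DMSO, 750 to 904 beside 240 to 407 in EPZ-6438), and COL1A1, a collagen gene, went from a mean of 247 to 623 in DMSO and from 92.2 to 626 in EPZ-6438. The part of these markers in the results was not tested. In bulk libraries a lower level in every cell and fewer cells that express a gene cannot be told apart.

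The members that moved most lie on 4 chromosomes of GRCh38.p14 as RefSeq places them. ARID1B is on the plus strand at chr6:156776026-157210779, PBRM1 on the minus strand at chr3:52545367-52685913, SMARCA2 on the plus strand at chr9:2015347-2193620 and SMARCC2 on the minus strand at chr12:56162359-56189483. Promoter windows, from 250 bases before to 50 bases after a RefSeq start, were given for 7 of the 10 members (13 windows), with none for ARID2, SMARCC1 and SMARCC2. Those of ARID1B, PBRM1 and SMARCA2 with the most GC boxes are shown because these members had the clearest changes, in opposite directions (5′ to 3′ on the gene's strand, with GC boxes, GGGCGG or its reverse complement, in capitals).
ARID1B, chr6:156777128-156777427, plus strand: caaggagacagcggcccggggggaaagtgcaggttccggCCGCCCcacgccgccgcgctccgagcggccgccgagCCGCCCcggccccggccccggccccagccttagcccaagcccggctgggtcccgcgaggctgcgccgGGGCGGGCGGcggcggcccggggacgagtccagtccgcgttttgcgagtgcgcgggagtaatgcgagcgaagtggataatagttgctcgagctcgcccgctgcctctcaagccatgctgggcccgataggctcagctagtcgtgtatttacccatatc
PBRM1, chr3:52685550-52685849, minus strand: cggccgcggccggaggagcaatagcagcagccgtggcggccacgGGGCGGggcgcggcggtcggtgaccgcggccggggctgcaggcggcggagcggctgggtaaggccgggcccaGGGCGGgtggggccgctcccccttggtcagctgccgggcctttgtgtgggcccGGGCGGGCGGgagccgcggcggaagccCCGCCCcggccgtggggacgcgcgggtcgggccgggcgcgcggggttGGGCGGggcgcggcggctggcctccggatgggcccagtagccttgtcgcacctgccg
SMARCA2, chr9:2015097-2015396, plus strand: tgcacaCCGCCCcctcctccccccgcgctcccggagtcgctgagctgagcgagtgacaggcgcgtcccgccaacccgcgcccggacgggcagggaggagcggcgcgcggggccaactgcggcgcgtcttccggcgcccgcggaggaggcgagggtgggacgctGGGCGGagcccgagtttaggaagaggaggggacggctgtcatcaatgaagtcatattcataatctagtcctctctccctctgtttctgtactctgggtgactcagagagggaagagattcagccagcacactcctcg

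A GC box was present in at least 1 window of all 7 genes with a window, in 8 of their 13 windows, against 45% of all 35116 RefSeq windows. The 45% is a share of windows, and no share of genes was taken, so the count of genes has no background. The box was present at SMARCA2, which fell, at SMARCB1, which passed no test, and at genes that rose. The word CCAAT was in 4 of the 13 windows (34.6% of all windows), and the ETS word CCGGAAG (10.3%) and the word TATAAA (11.5%) were each in 1, both at SMARCA2. None held the YY1 word AANATGGC (6.58%), the NRF1 word GCGCATGC (3.05%) or the CRE word TGACGTCA (1.85%). All words were searched on both strands, and a match or its absence in these windows is a description of the letters only.

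In the NTG libraries the 10 mRNAs spanned a wide range, and their levels are compared per kilobase of canonical transcript. SMARCC1 had the highest level, 565 ± 59.1 normalized counts per kb (SD, n = 3), followed by SMARCA4 at 541 ± 37.9, and the libraries of this pair overlapped. SMARCE1 (398 ± 31.0) and SMARCB1 (299 ± 5.12) came next. ARID1A (221 ± 16.7) and PBRM1 (197 ± 10.9) overlapped, as did SMARCA2 (151 ± 10.0) and SMARCC2 (135 ± 8.04). ARID1B (87.2 ± 5.57) and ARID2 (71.8 ± 6.46) had the lowest levels and did not overlap each other. Per kilobase of coding sequence SMARCE1, SMARCB1 and SMARCC1 came first and SMARCA4 after them, since the canonical transcripts of SMARCE1 and SMARCB1 have 3′ untranslated regions of 3823 and 3829 bases. In DMSO NTG SMARCC1 again had the highest level per kilobase of transcript (1191) and ARID1B (144) and ARID2 (151) the lowest. With siMCRS1 in DMSO the lower end of the order changed, with SMARCA2 lowest of the 10 (128 per kb) and ARID1B (338 per kb) above ARID2 (212 per kb) and SMARCC2 (158 per kb).

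Most of the SWI/SNF subunits that changed after knockdown of INO80 or MCRS1 were higher, except on equal totals with siMCRS1 in DMSO, where 2 rose and 2 fell, and SMARCA2 was lower. ARID1B, PBRM1 and ARID2 rose and SMARCA2 fell in all 4 comparisons of an siRNA with its control. The change of ARID1B was the largest of the 10 with siINO80#1 and with siMCRS1 and came after that of PBRM1 with siINO80#2. It went from 899 to 2072 normalized counts with siINO80#1 and from 1480 to 3488 with siMCRS1 in DMSO. SMARCC2 was the member that passed in both directions, higher with siINO80#2 and lower with siMCRS1. SMARCB1 did not pass the test in any comparison.

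**Figure D1:**
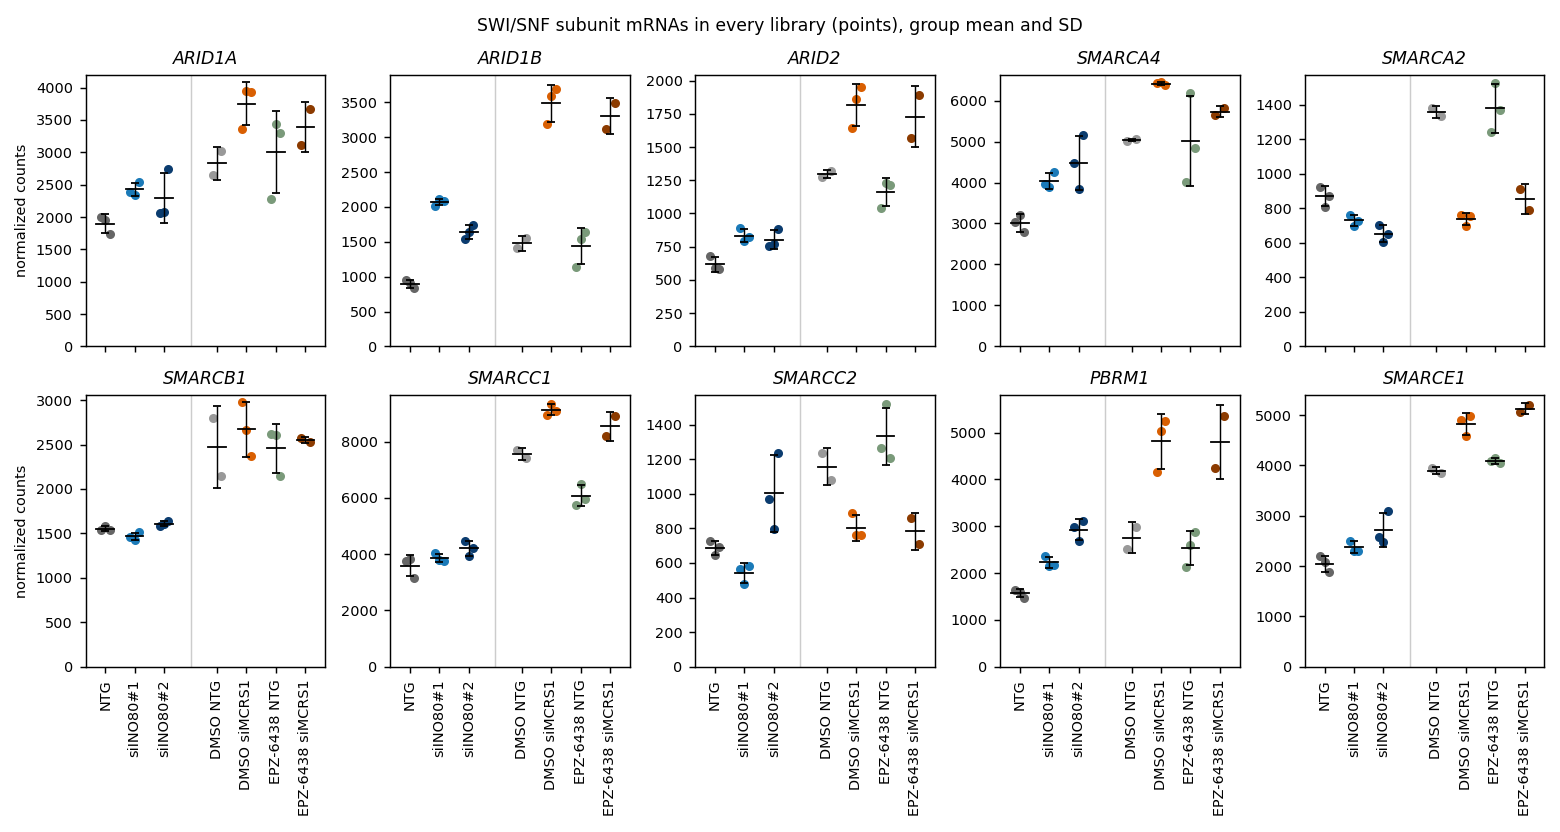
Normalized counts (y axes, from 0) of the 10 SWI/SNF subunit genes in each library, by group (x axis), with the INO80 experiment left of the grey line and the drug experiment right of it. Points are libraries, horizontal lines group means and error bars SD. ARID1B, ARID2 and PBRM1 lie above their NTG libraries with every siRNA and SMARCA2 below them, and levels are compared only within an experiment because the tables were normalized separately.

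With siINO80#1, 5 of the 10 members rose and 1 fell at a limma adjusted p under 0.05, where 41.6% of the 14034 genes tested changed (20.7% higher, 20.8% lower). With siINO80#2, 7 rose and 1 fell, against 55% of all genes (26.6% higher, 28.4% lower). With siMCRS1, 5 rose and 2 fell in DMSO, against 47.7% of 14312 genes (23.1% higher, 24.6% lower), and 5 rose and 2 fell in EPZ-6438, against 53.7% (26.8% higher, 26.9% lower). The median log2 fold change of the 10 members was 0.29, 0.39, 0.33 and 0.27 in these comparisons, beside medians between 0.00 and 0.01 over all genes tested. The libraries of the siRNA and of its control did not overlap for 9, 9, 9 and 7 members, beside 57.2%, 61.3%, 66.8% and 69.1% of all genes. The INO80 comparisons share their NTG libraries, and no overlap between them was taken.

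The deposited scaling places the median gene near no change. Rescaling all libraries to equal totals moved the median of all genes by -0.08 and -0.11 for siINO80#1 and siINO80#2, and by -0.23 for siMCRS1 in both treatments, since the normalized totals were higher with siMCRS1 (37296662 to 40177962 normalized counts in DMSO and 37503380 to 38454693 in EPZ-6438) than with NTG (32119248 to 33466237 and 31332572 to 33672033). Changes are therefore relative to the median gene. On equal totals 5 members rose and 2 fell with siINO80#1, 6 rose and 1 fell with siINO80#2, 2 rose and 2 fell with siMCRS1 in DMSO, and 4 rose and 2 fell with siMCRS1 in EPZ-6438, where 38.8%, 52.6%, 48.9% and 53.2% of all genes passed. Without library 1 of DMSO NTG, 4 members in place of 7 passed for siMCRS1 in DMSO, beside 32.2% of all genes.

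**Figure D2:**
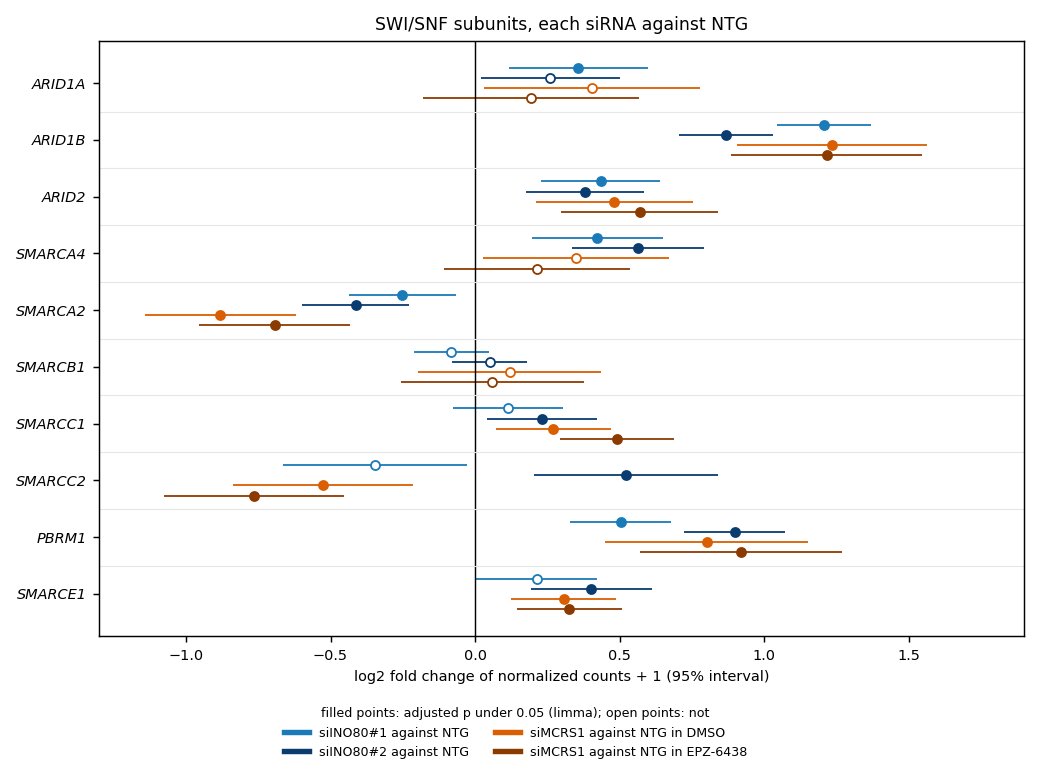
Log2 fold change of each member (x axis, on log2 of normalized counts + 1) with each siRNA against its NTG control, with 95% intervals from limma; filled points have an adjusted p under 0.05 over all genes tested. ARID1B, ARID2 and PBRM1 lie right of 0 and SMARCA2 left of it in all 4 comparisons, and SMARCC2 lies left of 0 in 3 and right of it with siINO80#2.

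The catalytic subunits moved in opposite directions after INO80 knockdown. SMARCA2, the less abundant ATPase, was at 923, 809 and 874 normalized counts in NTG, at 763, 700 and 724 with siINO80#1 and at 701, 603 and 652 with siINO80#2. Both knockdown groups lay wholly below NTG. SMARCA2 fell by 0.25 ± 0.08 (SE, log2) with siINO80#1 (limma, adjusted p = 0.032) and by 0.41 ± 0.08 with siINO80#2 (adjusted p = 0.0016). The call with siINO80#1 was lost without NTG replicate A (-0.21, adjusted p = 0.12), NTG replicate C (-0.25, 0.084), siINO80#1 replicate B (-0.22, 0.11) or siINO80#1 replicate C (-0.25, 0.087). SMARCA4, the ATPase that a large part of SWI/SNF complexes carries, was at 3048, 3207 and 2788 in NTG, at 3973, 3892 and 4252 with siINO80#1 and at 4468, 3831 and 5153 with siINO80#2. Every knockdown library was above every NTG library. SMARCA4 rose by 0.42 ± 0.10 (adjusted p = 0.0073) and 0.56 ± 0.10 (adjusted p = 0.00085).

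After MCRS1 knockdown SMARCA2 was the member that fell most in DMSO. It was at 1382 and 1335 normalized counts in DMSO NTG and at 762, 696 and 755 in DMSO siMCRS1. In EPZ-6438 it was at 1242, 1528 and 1367 with NTG and at 913 and 791 with siMCRS1. The groups were far apart in both treatments. SMARCA2 fell by 0.88 ± 0.12 in DMSO (adjusted p = 0.00021) and by 0.69 ± 0.12 in EPZ-6438 (adjusted p = 0.00063). SMARCA4 was at 5016 and 5061 in DMSO NTG and at 6425, 6449 and 6378 in DMSO siMCRS1, groups that did not overlap, yet the log2 difference of 0.35 ± 0.15 did not pass the test (adjusted p = 0.070). In EPZ-6438 it was at 4019, 6195 and 4846 with NTG and 5638 and 5829 with siMCRS1, and these groups overlapped (0.21 ± 0.15, adjusted p = 0.24). The wide spread of SMARCA4 came from the EPZ-6438 NTG group, and without its library 2 the difference was 0.38 with an adjusted p of 0.014. With only the DMSO groups in the fit, SMARCA4 passed the test in DMSO (0.35, adjusted p = 0.012).

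Of the ARID1 paralogues, which bind DNA and define the BAF form, ARID1B changed by far more than ARID1A. ARID1B was at 954, 904 and 839 normalized counts in NTG, at 2019, 2113 and 2084 with siINO80#1 and at 1539, 1643 and 1745 with siINO80#2. The 3 groups did not overlap. ARID1B rose by 1.21 ± 0.07 with siINO80#1 (limma, adjusted p = 1.5e-06) and by 0.87 ± 0.07 with siINO80#2 (adjusted p = 4.8e-06). In the drug experiment it was at 1405 and 1554 in DMSO NTG, 3186, 3592 and 3685 in DMSO siMCRS1, 1140, 1536 and 1639 in EPZ-6438 NTG, and 3122 and 3491 in EPZ-6438 siMCRS1. The siMCRS1 libraries of DMSO and EPZ-6438 overlapped each other and lay far above both NTG groups. The increase was 1.24 ± 0.15 in DMSO (adjusted p = 0.00012) and 1.22 ± 0.15 in EPZ-6438 (adjusted p = 8.3e-05).

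ARID1A, the more abundant paralogue, was at 1998, 1960 and 1733 normalized counts in NTG, at 2394, 2346 and 2538 with siINO80#1 and at 2057, 2072 and 2736 with siINO80#2. Both knockdown groups lay above NTG, with replicate C of siINO80#2 well above its other libraries. ARID1A rose by 0.36 ± 0.11 with siINO80#1 (adjusted p = 0.023), a call that was lost without NTG replicate C (0.29, adjusted p = 0.091), siINO80#1 replicate A (0.37, 0.051) or siINO80#1 replicate C (0.32, 0.079). With siINO80#2 the difference was 0.26 ± 0.11 (adjusted p = 0.064), and it passed the test without siINO80#2 replicate A (0.33, adjusted p = 0.040) or B (0.33, 0.038) and with DESeq2 (0.28, 0.039). With siMCRS1 it was 0.40 ± 0.17 in DMSO (adjusted p = 0.070) and 0.19 ± 0.17 in EPZ-6438 (adjusted p = 0.36), where the EPZ-6438 NTG libraries ranged from 2283 to 3443. The difference in DMSO passed the test with only the DMSO groups in the fit (adjusted p = 0.023) and with DESeq2 on the recovered reads (0.41, adjusted p = 0.049).

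PBRM1 and ARID2, the PBAF subunits among the members, rose in all 4 comparisons. The PBAF subunits PHF10 and BRD7, which are not members, passed the test in none of them. Their values follow in the order siINO80#1, siINO80#2, and siMCRS1 in DMSO and in EPZ-6438. PHF10 differed by 0.09, 0.16, 0.16 and 0.22 (limma, adjusted p = 0.315, 0.075, 0.26 and 0.13). BRD7 differed by -0.02, -0.02, -0.07 and 0.01 (adjusted p = 0.91, 0.86, 0.60 and 0.96). PBRM1, whose bromodomains bind acetylated histones, was at 1636, 1605 and 1472 normalized counts in NTG, at 2369, 2141 and 2174 with siINO80#1 and at 2991, 2682 and 3118 with siINO80#2. The groups were fully separate, with siINO80#2 highest. PBRM1 rose by 0.50 ± 0.08 (limma, adjusted p = 0.00053) and 0.90 ± 0.08 (adjusted p = 6.0e-06). Across the drug experiment it was at 2524 and 2992 in DMSO NTG, at 4148, 5035 and 5252 in DMSO siMCRS1, at 2136, 2602 and 2869 in EPZ-6438 NTG and at 4233 and 5363 in EPZ-6438 siMCRS1. Each siMCRS1 library was above all NTG libraries. The increase was 0.80 ± 0.16 in DMSO (adjusted p = 0.0020) and 0.92 ± 0.16 in EPZ-6438 (adjusted p = 0.00068). Exons of UQCC5, a mitochondrial assembly gene listed under its older symbol SMIM4, overlap PBRM1 on the opposite strand. UQCC5 fell by 0.81 with siINO80#1, by 0.91 with siINO80#2 and by 0.50 with siMCRS1 in EPZ-6438 (adjusted p = 0.0056, 0.0018 and 0.024) and differed by -0.42 in DMSO (adjusted p = 0.058), from 184 normalized counts in NTG and 280 in DMSO NTG. Its part in the values of PBRM1 was not tested.

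ARID2, the DNA-binding subunit of PBAF, was at 681, 589 and 582 normalized counts in NTG, at 887, 793 and 819 with siINO80#1 and at 756, 773 and 882 with siINO80#2. The knockdown groups overlapped each other and lay above NTG. ARID2 rose by 0.43 ± 0.09 (adjusted p = 0.0034) and 0.38 ± 0.09 (adjusted p = 0.0050). In the drug experiment it was at 1278 and 1319 in DMSO NTG and 1645, 1860 and 1949 in DMSO siMCRS1, and at 1043, 1231 and 1214 in EPZ-6438 NTG and 1566 and 1891 in EPZ-6438 siMCRS1. The siMCRS1 groups were wholly above their controls. The increase was 0.48 ± 0.12 in DMSO (adjusted p = 0.0082) and 0.57 ± 0.12 in EPZ-6438 (adjusted p = 0.0027). In DMSO the call was lost without library 1 of DMSO NTG (0.46, adjusted p = 0.058) and on equal totals (0.25, adjusted p = 0.12).

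Among the core subunits the scaffold paralogues SMARCC1 (BAF155) and SMARCC2 (BAF170) changed in opposite directions with siMCRS1, and both rose with siINO80#2. SMARCC2 was at 726, 645 and 692 normalized counts in NTG, at 566, 476 and 583 with siINO80#1 and at 973, 796 and 1238 with siINO80#2. The siINO80#1 libraries were all below NTG and the siINO80#2 libraries all above it. The log2 difference was -0.35 ± 0.14 with siINO80#1 (limma, adjusted p = 0.077), which passed on equal totals (-0.43, adjusted p = 0.016) and with only these groups in the fit (adjusted p = 0.013), and SMARCC2 rose by 0.52 ± 0.14 with siINO80#2 (adjusted p = 0.010). With siMCRS1 and its controls it was at 1234 and 1080 in DMSO NTG, 889, 760 and 762 in DMSO siMCRS1, 1266, 1520 and 1209 in EPZ-6438 NTG, and 859 and 707 in EPZ-6438 siMCRS1. No siMCRS1 library reached an NTG library. SMARCC2 fell by 0.53 ± 0.14 in DMSO (adjusted p = 0.010) and by 0.76 ± 0.14 in EPZ-6438 (adjusted p = 0.0010). The call in DMSO was lost without library 1 of DMSO NTG (-0.43, adjusted p = 0.097).

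Exons of MYL6, a myosin light chain gene at 5446 normalized counts in NTG, overlap SMARCC2 on the opposite strand, and whether the quantification used the strand is not stated. MYL6 rose by 0.32 with siINO80#1 (adjusted p = 0.0075), by 0.55 with siMCRS1 in DMSO (adjusted p = 0.0019) and by 0.45 in EPZ-6438 (adjusted p = 0.0050), and differed by 0.06 with siINO80#2 (adjusted p = 0.58). MYL6 was thus higher where SMARCC2 was lower. Its part in the values of SMARCC2 was not tested, and those values are uncertain in this respect. A same-strand gene without a symbol, ENSG00000258199, also overlaps SMARCC2. SMARCE1 is overlapped on the same strand by ENSG00000264058. ARID1B and SMARCB1 are overlapped on the opposite strand by ENSG00000271551 and DERL3, in this order. The part of these genes in the values of the members was not tested.

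SMARCC1 was at 3772, 3837 and 3157 normalized counts in NTG, at 4043, 3807 and 3773 with siINO80#1 and at 4452, 3938 and 4226 with siINO80#2. The siINO80#1 libraries overlapped NTG and the siINO80#2 libraries did not. The difference with siINO80#1 was 0.12 ± 0.09 (adjusted p = 0.32). SMARCC1 rose by 0.23 ± 0.09 with siINO80#2 (adjusted p = 0.040), a call lost without NTG replicate C (0.14, adjusted p = 0.16), siINO80#2 replicate A (0.19, 0.13) or siINO80#2 replicate C (0.23, 0.060), with only these groups in the fit (adjusted p = 0.076) and on equal totals (0.12, adjusted p = 0.28). In the drug experiment it was at 7710 and 7420 in DMSO NTG and 8951, 9346 and 9090 in DMSO siMCRS1, and at 5761, 6490 and 5968 in EPZ-6438 NTG and 8182 and 8890 in EPZ-6438 siMCRS1. The siMCRS1 groups were wholly above their controls. SMARCC1 rose by 0.27 ± 0.09 in DMSO (adjusted p = 0.028) and by 0.49 ± 0.09 in EPZ-6438 (adjusted p = 0.00096). The call in DMSO was lost without library 1 (0.30, adjusted p = 0.082) or 3 (0.24, 0.14) of DMSO NTG, without library 2 (0.25, 0.080) or 3 (0.27, 0.057) of DMSO siMCRS1, and on equal totals (0.04, adjusted p = 0.74).

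SMARCE1 (BAF57), an HMG-box subunit, was at 2190, 2082 and 1876 normalized counts in NTG, at 2506, 2308 and 2307 with siINO80#1 and at 2571, 2479 and 3100 with siINO80#2. Both knockdown groups lay above NTG. The difference was 0.21 ± 0.09 with siINO80#1 (limma, adjusted p = 0.095; 0.033 with only these groups in the fit), and SMARCE1 rose by 0.40 ± 0.09 with siINO80#2 (adjusted p = 0.0042). Across the drug experiment it was at 3945 and 3852 in DMSO NTG, 4908, 4581 and 4976 in DMSO siMCRS1, 4078, 4153 and 4044 in EPZ-6438 NTG, and 5058 and 5202 in EPZ-6438 siMCRS1. No library of either siMCRS1 group fell among the NTG libraries. SMARCE1 rose by 0.31 ± 0.08 (adjusted p = 0.011) and 0.33 ± 0.08 (adjusted p = 0.0065). These calls were lost without library 3 of DMSO NTG (0.29, adjusted p = 0.064), without EPZ-6438 siMCRS1 replicate B (0.31, 0.062), and on equal totals (0.07, adjusted p = 0.55, in DMSO and 0.09, 0.44, in EPZ-6438).

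SMARCB1 (SNF5), a core subunit that contacts the nucleosome, passed the test in no comparison. It was at 1540, 1583 and 1534 normalized counts in NTG, at 1457, 1430 and 1514 with siINO80#1 and at 1583, 1604 and 1636 with siINO80#2. These values span a narrow range, with siINO80#1 below NTG and siINO80#2 touching it. The differences were -0.08 ± 0.06 (95% interval -0.21 to 0.05, adjusted p = 0.30) and 0.05 ± 0.06 (-0.08 to 0.18, adjusted p = 0.49). In the drug experiment the libraries spread more, from 2143 to 2795 in DMSO NTG, from 2368 to 2980 in DMSO siMCRS1 and from 2144 to 2614 in EPZ-6438 NTG, beside 2574 and 2523 in EPZ-6438 siMCRS1. The siMCRS1 differences were 0.12 (-0.20 to 0.43, adjusted p = 0.52) and 0.06 (-0.26 to 0.38, adjusted p = 0.75). The sign of the SMARCB1 differences with siINO80#2 and siMCRS1 turned on equal totals.

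The INO80 siRNAs differed from each other for 3 of the 10 members, against 22.1% of all genes tested (9.48% higher and 12.6% lower with siINO80#2). SMARCC2 was higher with siINO80#2 than with siINO80#1 by 0.87 ± 0.14 (limma, adjusted p = 0.0023), a comparison of 973, 796 and 1238 with 566, 476 and 583 normalized counts. PBRM1 was higher by 0.39 ± 0.08 (adjusted p = 0.0060). ARID1B was lower by 0.34 ± 0.07 (adjusted p = 0.0090). INO80 itself was lower with siINO80#2, by 0.40 ± 0.08 (adjusted p = 0.0058). The other 7 members did not pass the test, and without siINO80#2 replicate C ARID1A did (-0.23, adjusted p = 0.049).

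The balance within each paralogue pair was taken as a log2 ratio within each library, which no scaling between libraries can change. The ATPases, and ARID1A and ARID1B, are alternatives for a place in the complex, whereas SMARCC1 and SMARCC2 can be present in the same complex. In NTG libraries the ratio of SMARCA2 to SMARCA4 was 0.252 to 0.313 in normalized counts, and it was 0.170 to 0.192 with siINO80#1 and 0.126 to 0.157 with siINO80#2. The INO80 groups lay below NTG without overlap. The log2 ratio differed by -0.67 and -0.98 (two-sided exact permutation test, p = 0.1 for each, the smallest that 3 against 3 libraries allow; adjusted p = 0.12 over 12 tests). With siMCRS1 the ratio was 0.108 to 0.119 in DMSO and 0.136 to 0.162 in EPZ-6438, against 0.264 to 0.275 and 0.247 to 0.309 with NTG. The difference within treatments was -1.07 (exact permutation within treatments, p = 0.01, the smallest possible, adjusted p = 0.040). Per kilobase of transcript, SMARCA2 made up 21.9% ± 1.96 (SD, n = 3) of the ATPase mRNA of this pair in NTG, 14.9% ± 0.77 with siINO80#1 and 12.5% ± 1.33 with siINO80#2, and 20.7% ± 0.50 (n = 2) in DMSO NTG beside 10.0% ± 0.48 (n = 3) in DMSO siMCRS1.

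The ratio of ARID1B to ARID1A went up in all knockdown groups. It was 0.462 to 0.484 in NTG, 0.821 to 0.901 with siINO80#1 and 0.638 to 0.793 with siINO80#2, again without overlap. The log2 ratio differed by 0.85 and 0.61 (exact permutation test, p = 0.1 for each, adjusted p = 0.12). With siMCRS1 it was 0.908 to 0.947 in DMSO and 0.951 to 1.00 in EPZ-6438, against 0.516 to 0.531 and 0.446 to 0.499 with NTG, a difference of 0.93 (exact permutation test, p = 0.01, adjusted p = 0.040). The normalized counts of this pair were therefore nearly equal in siMCRS1 cells. Per kilobase, ARID1B made up 28.3% ± 0.50 (n = 3) of the pair in NTG and 41.6% ± 1.16 and 37.6% ± 2.63 with siINO80#1 and siINO80#2.

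The ratio of SMARCC2 to SMARCC1 separated the siRNAs. It was 0.168 to 0.219 in NTG, 0.125 to 0.155 with siINO80#1 and 0.202 to 0.293 with siINO80#2. The siINO80#1 group lay wholly below NTG, and the siINO80#2 group overlapped it. The log2 ratio differed by -0.46 (exact permutation test, p = 0.1) and 0.29 (exact permutation test, p = 0.3, adjusted p = 0.33). With siMCRS1 the ratio was 0.0813 to 0.0993 in DMSO and 0.0796 to 0.105 in EPZ-6438, against 0.146 to 0.160 and 0.203 to 0.234 with NTG, a difference of -1.03 (exact permutation test, p = 0.01, adjusted p = 0.040). The overlap of SMARCC2 with MYL6 bears on this ratio as well.

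**Figure D3:**
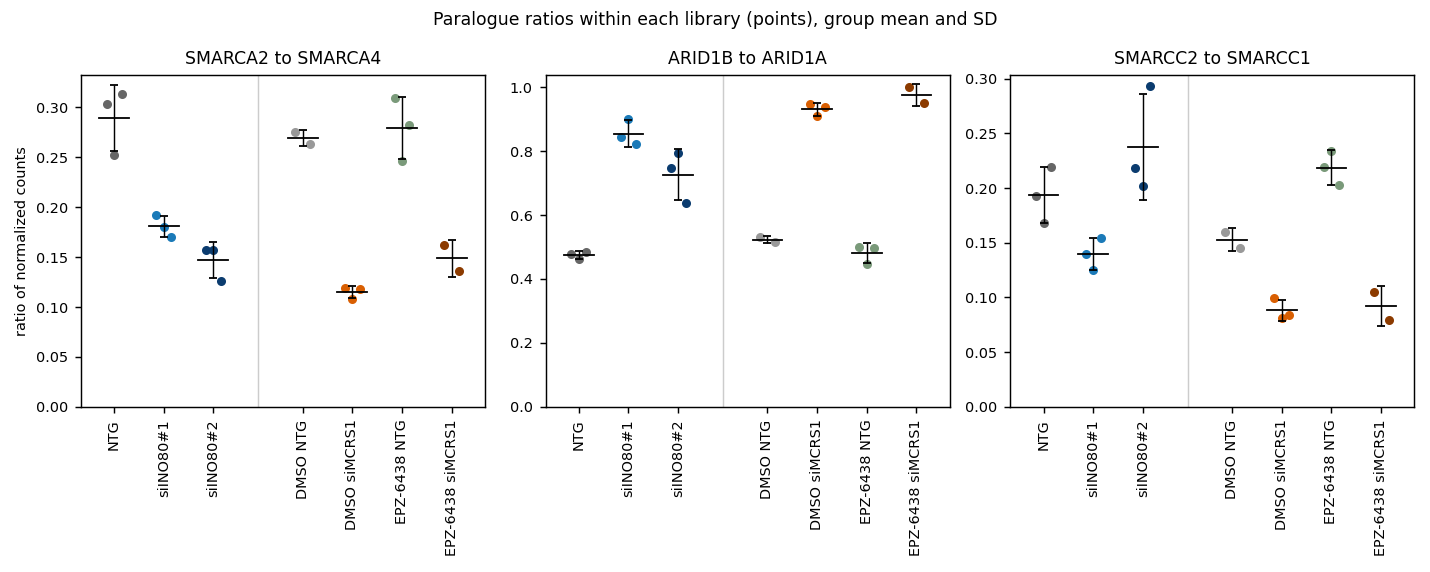
Ratio of normalized counts (y axes, from 0) within each library for 3 paralogue pairs, by group (x axis), with the INO80 experiment left of the grey line and the drug experiment right of it; points are libraries, lines group means and error bars SD. The SMARCA2 to SMARCA4 ratio is below NTG and the ARID1B to ARID1A ratio above it in every knockdown group, while the SMARCC2 to SMARCC1 ratio is below NTG except with siINO80#2.

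EPZ-6438 gave no call among the 10 members. In NTG cells 0 of 10 passed the limma test, where 0.384% of 14312 genes did (0.0629% lower), and 1 member had an unadjusted p under 0.05, while on the recovered reads edgeR called 0 members (0.377% of all genes) and DESeq2 called 1 (5.04%). In siMCRS1 cells 0 of 10 passed (0.0908% of all genes, 0.00699% lower), with none at an unadjusted p under 0.05 and 0 by edgeR (0.133%) and DESeq2 (1.04%). At this background few calls among 10 genes could be looked for, and the intervals are given. The members' differences ranged from -0.32 to 0.20 in NTG cells and from -0.16 to 0.20 in siMCRS1 cells, and their 95% intervals lay between -0.52 and 0.51 in both. Differences beyond these bounds, such as those of ARID1B, PBRM1 and SMARCA2 with siMCRS1, lie outside every member's interval.

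SMARCC1 was the member with the largest difference with EPZ-6438. It was at 7710 and 7420 normalized counts in DMSO NTG and at 5761, 6490 and 5968 in EPZ-6438 NTG, groups that did not overlap. The difference was -0.32 ± 0.09 (limma, adjusted p = 0.12). It passed with DESeq2 on the recovered reads (-0.31, adjusted p = 0.023). In siMCRS1 cells the difference was -0.10 ± 0.09 (adjusted p = 0.84), with 8951, 9346 and 9090 in DMSO and 8182 and 8890 in EPZ-6438.

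**Figure D4:**
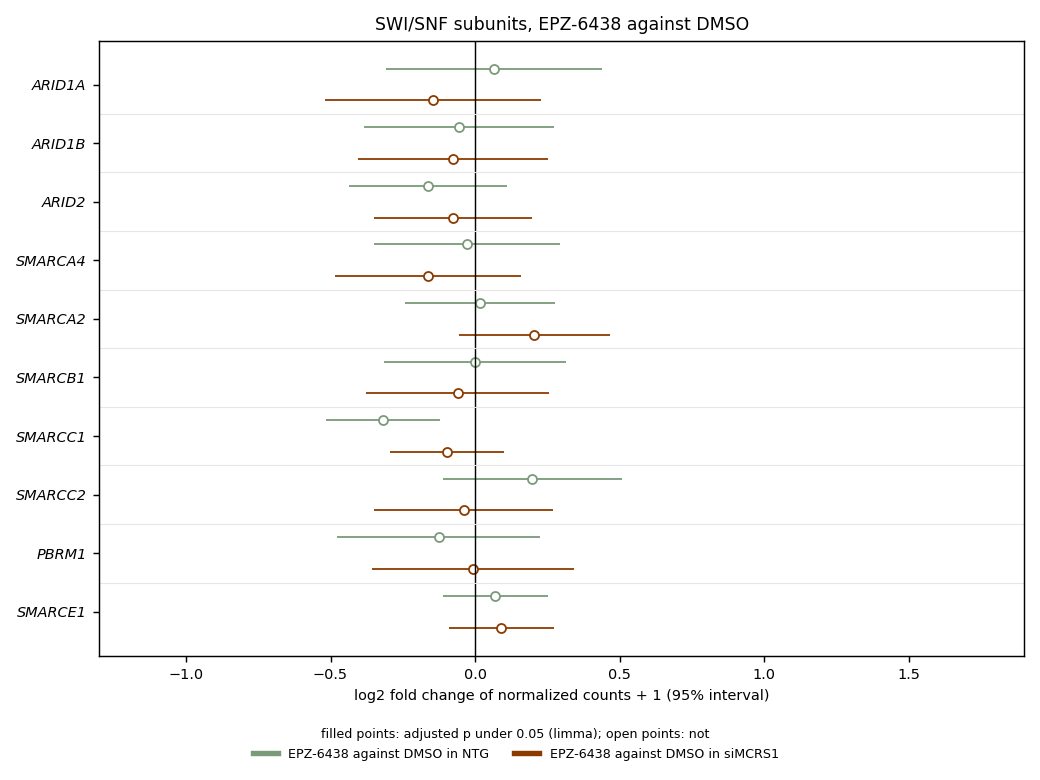
Log2 fold change of each member (x axis, on log2 of normalized counts + 1, same scale as in the plot of the siRNA effects) with EPZ-6438 against DMSO, in NTG and in siMCRS1 cells, with 95% intervals from limma; all points are open, since none had an adjusted p under 0.05. The points lie between -0.32 and 0.20, and the interval of SMARCC1 in NTG cells is the one that does not reach 0.

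Whether the effect of siMCRS1 differed between DMSO and EPZ-6438 was tested as an interaction. No member passed (limma, 0 of 10, none at an unadjusted p under 0.05, and 0 by edgeR and DESeq2), where 0% of 14312 genes passed with limma, 0 with edgeR and 5 with DESeq2. The interaction terms of the 10 members ranged from -0.24 for SMARCC2 to 0.22 for SMARCC1, with intervals between -0.74 and 0.62. The pair ratios differed between EPZ-6438 and DMSO within siRNA by 0.21 for SMARCA2 to SMARCA4 (exact permutation test, p = 0.08), by -0.03 for ARID1B to ARID1A (exact permutation test, p = 0.7) and by 0.29 for SMARCC2 to SMARCC1 (exact permutation test, p = 0.08). No ratio passed after adjustment over 12 tests (adjusted p of 0.12, 0.70 and 0.12).

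The remaining SWI/SNF subunits were read from a list of 21 genes, of which 19 passed the filter on low values in the INO80 experiment and 18 in the drug experiment. With siINO80#1, 6 rose and 2 fell, and with siINO80#2, 6 rose and 2 fell. With siMCRS1, 2 rose and 2 fell in DMSO and 2 rose and 4 fell in EPZ-6438. These shares, 8 of 19 and 8 of 19, then 4 of 18 and 6 of 18, were near or below the background of each comparison. The list's median log2 fold changes were 0.25, 0.16, 0.09 and 0.03.

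Among them the paralogues SS18 and SS18L1, which bind the ATPase of BAF, rose in all 4 comparisons. SS18 was at 655, 604 and 592 normalized counts in NTG, at 1439, 1451 and 1442 with siINO80#1 and at 1541, 1410 and 1690 with siINO80#2. It was at 987 and 1357 in DMSO NTG beside 2601, 2633 and 2971 in DMSO siMCRS1, and at 951, 1014 and 1195 in EPZ-6438 NTG beside 2382 and 2575 in EPZ-6438 siMCRS1. Every knockdown library was far above every control library. SS18 rose by 1.23 and 1.32 with siINO80#1 and siINO80#2 and by 1.24 with siMCRS1 in each treatment (limma, adjusted p = 2.1e-06, 5.3e-07, 0.00011 and 6.9e-05). SS18L1 rose by 1.11, 1.21, 1.10 and 1.18 in the same order (adjusted p = 8.9e-06, 2.4e-06, 0.0012 and 0.00058), from 457 to 990 and 1065 with the INO80 siRNAs. SMARCD2, one of 3 paralogous BAF60 subunits, fell by 0.41, 0.88, 0.74 and 0.93 (adjusted p = 0.0014, 5.2e-06, 0.010 and 0.0025), and the difference between the INO80 siRNAs passed too (-0.47, adjusted p = 0.0021). SMARCD1, another of them, rose by 0.25 with siINO80#1 (adjusted p = 0.023) and by 0.52 with siINO80#2 (adjusted p = 0.00021), with a difference between them of 0.27 (adjusted p = 0.030). It differed by -0.19 with siMCRS1 in DMSO (adjusted p = 0.20) and fell by 0.33 with siMCRS1 in EPZ-6438 (adjusted p = 0.031).

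Of the double PHD finger paralogues, DPF1 and DPF3 were at low levels and fell in part of the comparisons. DPF2 was at a mean of 946 normalized counts in NTG, and at 922 and 950 with siINO80#1 and siINO80#2. In the drug experiment DPF2 was at 1556 in DMSO NTG and 1644 in DMSO siMCRS1, and at 1629 and 1512 in EPZ-6438. DPF3 went from 33.4 to 12.7 with siINO80#1 (-1.35, adjusted p = 0.012), to 14 with siINO80#2 (-1.28, adjusted p = 0.011) and from 63.1 to 27.9 with siMCRS1 in EPZ-6438 (-1.17, adjusted p = 0.0051). DPF1 went from 109 to 34.2 normalized counts with siMCRS1 in DMSO (-1.63, adjusted p = 0.00044) and from 83.4 to 37.2 in EPZ-6438 (-1.14, adjusted p = 0.0028). ACTL6A and ACTB encode actin-fold proteins that SWI/SNF shares with INO80-C. ACTL6A was at 1204, 1258 and 1141 normalized counts in NTG, siINO80#1 and siINO80#2, with no call in any comparison, and ACTB rose with siINO80#1 (0.32, adjusted p = 0.030) and passed in no other comparison.

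ATPases of other remodelling families were read in the same way from a list of 17 genes. With siINO80#1, 5 rose and 3 fell of 17 tested, and with siINO80#2, 9 rose and 4 fell. With siMCRS1, 5 rose and 3 fell of 16 in DMSO and 7 rose and 2 fell of 16 in EPZ-6438. These shares, 8 of 17, 13 of 17, 8 of 16 and 9 of 16, stand beside 41.6%, 55%, 47.7% and 53.7% of all genes. The medians were 0.19, 0.32, 0.16 and 0.24. ATRX, a remodeller of heterochromatin, rose by 0.72, 0.90, 0.78 and 0.79 (limma, adjusted p = 0.00018, 2.1e-05, 0.014 and 0.011). SMARCA1, an ISWI ATPase, fell by 0.42 and 0.85 with siINO80#1 and siINO80#2 (adjusted p = 0.0028 and 1.6e-05), and fell with siMCRS1 in DMSO by 0.33 (adjusted p = 0.020). HELLS, which acts in DNA methylation, fell by 1.02 with siINO80#2 (adjusted p = 6.9e-05) and was lower with it than with siINO80#1 by 0.92 (adjusted p = 0.0010). EP400 fell by 0.37 with siINO80#1 (adjusted p = 0.011) and by 0.71 with siMCRS1 in EPZ-6438 (adjusted p = 0.016). EP400 was also among the 4 genes of the list that fell with siINO80#2, to a mean of 1934 normalized counts beside 2580 in NTG. Its mean was lower in DMSO siMCRS1 too, 2577 beside 3603 in DMSO NTG. CHD7, a CHD-family ATPase, rose by 0.66 and 0.68 with siMCRS1 in DMSO and EPZ-6438 (adjusted p = 0.0032 and 0.0021). It rose with siINO80#1 too (0.29, limma, adjusted p = 0.024), and its mean went from 2316 normalized counts in NTG to 2827 with siINO80#1 and 3211 with siINO80#2. The mean of CHD8 went from 3499 in NTG to 4335 and 5022 with siINO80#1 and siINO80#2. With siMCRS1 it went down, from 6184 to 4723 in DMSO and from 5919 to 4129 in EPZ-6438. CHD1L went from 2331 in NTG to 1745 and 1792 with the INO80 siRNAs, and CHD5, at low levels, from 22.2 to 31.5 and 53.5. No gene of either list passed the limma test for EPZ-6438 or the interaction, where 2 and 3 genes of the lists had an unadjusted p under 0.05 in NTG cells, 2 and 0 in siMCRS1 cells and 0 and 0 for the interaction.

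For each gene, deviations of the log2 values were taken from its mean over all libraries of an experiment. The genes whose deviations were most like those of the ATPases were searched over all 19 libraries. The search covered the 11420 genes whose mean reached 50 normalized counts in both tables. The nearest to SMARCA4 were DRAP1, CDC42BPB and OPA3, with root mean square differences of 0.0869, 0.0869 and 0.0938 on the log2 scale, where SMARCA4 itself deviated by 0.24. The nearest to SMARCA2 were FAM208A, CEP70 and SENP1, at 0.103, 0.104 and 0.106, where SMARCA2 deviated by 0.33. The libraries share their controls within an experiment, and this likeness is a description of the values.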

How the data were processed

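Stranded mRNA libraries of HepG2 cells were made with a Kapa kit. For each experiment the authors deposited a table of signal values, which are counts per gene symbol over a library's size factor and are called normalized counts here. The submitters' processing notes name kallisto, DESeq2 and GRCh38, with no version of the tools. The annotation and the use of strand are not given in the sources used here. Kallisto gives estimated counts, so the whole numbers (100% of values within 0.001) obtained by dividing by each library's step, called reads, may be rounded estimates. A floor of 3 reads was worth 2.30 to 3.58 and 2.13 to 4.30 normalized counts in the INO80 and drug experiments, and it covers counting error only. Replicates differed by more than sampling noise (9.45 to 121 as chi-square over degrees of freedom in 17 pairs), so none was taken as a copy.

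Groups came from the sample labels, and columns of the drug table were assigned by the treatment and siRNA in their names. Genes with a mean of at least 10 (14034 and 14312, all 10 members among them) were tested as log2(value + 1) with limma 3.58.1 in R 4.3.3 (1 fit for all groups of a table, trended eBayes), with Benjamini-Hochberg adjustment over all genes tested and 0.05 as the threshold. Paralogue ratios were compared by exact permutation, within treatments in the drug experiment. Lengths and exon overlaps came from GENCODE v44 as lifted to the genome build before GRCh38. Positions and promoter windows came from RefSeq GRCh38.p14. Alternatives were a pseudocount of 0.1 or 5, a mean of at least 1 or 50, equal totals, only the groups compared, edgeR 4.0.16 (TMM) and DESeq2 1.42.0 on the recovered reads, a replicate block and leaving out each library. The scripts were tested on simulated data. Python 3.11.15, numpy 2.4.6, pandas 2.3.3 and matplotlib 3.10.9 were used.

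The members, lists, tests and rule for named genes were chosen with earlier results of these data known. All members were named. Of the other lists the rule allowed at most the 4 genes of largest change among those past the threshold in each comparison. Not every gene of large change was named, and CHD1L, CHD5 and CHD8 are given by their means only. ACTL6A and ACTB were always named. PHF10 and BRD7 were named as well, as subunits of PBAF. No ChIP-seq file entered the work.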

Additional observations from a re-analysis of the deposited data

Results flagged for a closer look

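The effects of the INO80 siRNAs differed for 3 members by the test of siINO80#2 against siINO80#1 (limma, adjusted over 14034 genes). SMARCC2 differed by 0.87 (adjusted p = 0.0023), being above NTG with one siRNA and below it with the other in every library. PBRM1 differed by 0.39 (adjusted p = 0.0060) and ARID1B by -0.34 (adjusted p = 0.0090), both higher than NTG with each siRNA. The remaining INO80 was lower with siINO80#2 (460 normalized counts, beside 608 with siINO80#1), and 22.1% of all genes differed between the siRNAs. Groups of 3 libraries or fewer were not tested for single outlying libraries. With siINO80#2, replicate C differed more from A and B (84.3 and 121 as chi-square over degrees of freedom) than these did from each other (18.7).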

How the results depend on the processing

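The number of members that passed with siMCRS1 in DMSO was 4 in place of 7 on equal totals (48.9% of all genes) and 4 to 7 with 1 library left out, the lowest without library 1 of DMSO NTG (32.2%). SMARCC1 was the 1 member that passed for EPZ-6438 in NTG cells with DESeq2 (1 in place of 0, beside 5.04% of all genes) and with the number in the column names as a replicate block (1, adjusted p = 0.029, beside 8.11%). With 1 library left out the number was 4 to 6 for siINO80#1, 7 to 9 for siINO80#2, 3 to 4 between them, 6 to 8 for siMCRS1 in EPZ-6438 and 0 for EPZ-6438 and the interaction, and under the other settings it stayed within 1.5 times of the reported one.

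On equal totals the sign turned for SMARCB1 with siINO80#2 (-0.059) and for both siMCRS1 comparisons (-0.12, DMSO, and -0.18, EPZ-6438), for ARID1A with siMCRS1 in EPZ-6438 (-0.044) and for SMARCA4 there (-0.024), none of which had passed. SMARCB1 with siMCRS1 ranged from -0.072 to 0.31 in DMSO and from -0.035 to 0.11 in EPZ-6438 with 1 library left out. Of 464 values of single members under another setting, 442 kept direction and side of the threshold, 6 lost the call, 11 gained it and 5 turned, and of 300 with 1 library left out these numbers were 276, 18, 4 and 2. The pair ratio difference with EPZ-6438 ranged from 0.14 to 0.27 for SMARCA2 to SMARCA4 and from 0.19 to 0.39 for SMARCC2 to SMARCC1 with 1 library left out, with exact permutation p of 0.017 without library 2 of EPZ-6438 NTG (0.25) and 0.025 without EPZ-6438 siMCRS1 replicate B (0.39). The cause of these changes was not tested.

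It is not settled whether the letters shared by the INO80 groups mark pairs. The same-letter correlation of deviations was 0.10 on average and -0.08 to 0.26 over 9 pairs, beside -0.05 over 18 others. With the letter as a replicate block 7, 8 and 3 members passed for siINO80#1, siINO80#2 and their difference. The shares of all genes were 45.1%, 57.9% and 25.6%, beside 41.6%, 55% and 22.1% without the block. SMARCC2 was the member gained with siINO80#1 (-0.35, adjusted p = 0.022). The number block gave 8 for siMCRS1 in DMSO (55.9%), with ARID1A gained (0.33, adjusted p = 0.023), and no such fit was made for the comparisons with EPZ-6438 siMCRS1, whose columns carry letters.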
